A study of Mus musculus with 6 samples.

Results

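The Slc6a11 astrocytes described here are 1891 of the 55537 barcodes deposited for the septal area of the wild type mouse brain. They were chosen by their own counts. A barcode had to pass the filters (500 or more genes, at most 5% mitochondrial UMIs, the unique molecular identifiers that count RNA molecules), hold 4 or more UMIs of the astrocyte glutamate transporter Slc1a2, and hold at most 1 UMI of the GABA-making enzymes Gad1 and Gad2 together. Among the 12297 barcodes so gated, 3 sums of UMIs were formed: Lrig1, Slc6a11, Itih3 and Aldh1a1 for the Slc6a11 astrocytes; Grin2c, Gldc, Ranbp3l and Rorb for the Gldc astrocytes; and Adamts18, Veph1, Gfap, Igfbp5 and Slc38a1 for the Gfap astrocytes. A nucleus joined the group whose sum was the largest and reached 4, and ties were left out, which gave 6612 Gldc astrocytes and 1272 Gfap astrocytes beside the 1891.

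The data are 6 droplet libraries (Chromium 3' chemistry, version 3) that together form 1 group, with no treatment or mutant, so every comparison below is between groups of nuclei within the same libraries. All carry the wild type genotype. Strain, age, sex and the number of animals were not given in the sources used here. Nothing says that the libraries come from separate animals. The p-values therefore measure only how the difference between groups varies from library to library, which may be technical. The series title speaks of nuclei and the protocol of cells; they are called nuclei here.

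Astrocytes clear transmitters from synapses, buffer potassium and carry regional gene programs that keep a trace of where they arose. Slc6a11 encodes a plasma membrane GABA transporter of astrocytes; Lrig1 encodes a membrane protein that restrains ErbB and related growth factor receptors; Itih3 encodes a hyaluronan-binding secreted protein; Aldh1a1 encodes an enzyme that makes retinoic acid. The septum lies in the medial telencephalon and is rich in GABAergic neurons. Hedgehog signalling, which comes up repeatedly below, runs from the ligand Shh to its receptor Ptch1, which holds back Smo; active Smo lets Gli factors switch on genes that include Gli1, Ptch1 and Hhip.

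The 3 genes of the sum with the highest mean levels in the group are shown by the bases just upstream of their start. These windows are what a reader would search first for shared regulatory letters. Each is 250 bases, 5′ to 3′ on the gene's strand, from RefSeq (GRCm38.p6), at chr6:114130991-114131240 on the plus strand for Slc6a11, chr6:94700146-94700395 on the minus strand for Lrig1 and chr14:30923588-30923837 on the minus strand for Itih3. Capitals mark AGGTCA, the half-site read by many nuclear receptors, searched on both strands.
Slc6a11 upstream: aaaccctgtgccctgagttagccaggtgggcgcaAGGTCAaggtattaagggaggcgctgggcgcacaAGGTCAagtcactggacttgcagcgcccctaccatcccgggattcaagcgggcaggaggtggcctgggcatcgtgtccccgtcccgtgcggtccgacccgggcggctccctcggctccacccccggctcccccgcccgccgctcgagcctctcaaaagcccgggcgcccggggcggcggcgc
Lrig1 upstream: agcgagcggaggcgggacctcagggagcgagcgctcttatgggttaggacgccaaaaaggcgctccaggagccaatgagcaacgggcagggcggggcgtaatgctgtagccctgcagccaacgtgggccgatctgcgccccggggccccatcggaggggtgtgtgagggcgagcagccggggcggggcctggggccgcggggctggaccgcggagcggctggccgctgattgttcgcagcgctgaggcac
Itih3 upstream: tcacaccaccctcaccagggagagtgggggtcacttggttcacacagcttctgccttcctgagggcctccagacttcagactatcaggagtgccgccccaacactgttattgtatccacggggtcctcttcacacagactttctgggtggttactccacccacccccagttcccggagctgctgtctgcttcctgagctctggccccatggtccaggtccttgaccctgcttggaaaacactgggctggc

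The Slc6a11 window, with 71.2% G and C, held 2 copies of AGGTCA, and the Lrig1 and Itih3 windows, with 71.6 and 58.8% G and C, held none. Among the 4 genes of the sum, which have 5 windows, 1 window held the motif, against 14% of all 32851 windows of this length. Of the 12 rule-named genes with the largest rises against the Gldc astrocytes 7 had windows, 10 in all, and of the 12 with the largest falls 6 had windows, 9 in all; none of these windows held it. Neither TAATTA, the core read by homeodomain proteins (4.84% of all windows), nor GACCACCCA, the Gli site (0.225%), was found in any of these windows or in the 16 windows that 14 of the 18 genes of the Hedgehog list had. Gli1 had no entry and was not searched. A match is a string of letters and not a shown site, and its absence says nothing about a factor.

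The libraries held 7393 to 11134 barcodes and 70183544 to 95175260 UMIs each. No pair of libraries shared more than 0.433% of the barcodes of the smaller one, and no Slc6a11 astrocyte barcode was shared. The Slc6a11 astrocytes numbered 323, 283, 264, 392, 340 and 289 in replicates 1 to 6, or 3.50% ± 0.435 (SD, n = 6) of all nuclei past the filters and 13.1 to 17.5% of the gated ones. Their median UMI count lay between 3702.5 and 4871.5 over libraries, close to the 3730 to 4794 of the Gldc astrocytes and the 3444 to 4694 of the Gfap astrocytes. Doublets were not removed: 127 members were predicted doublets, 5.54 to 8.05% of each library's members. In each library 60.9 to 66.8% of the members held 2 or more UMIs of markers of other cell types. In the Gldc and Gfap astrocytes this share was 57.7 to 65.4 and 67.8 to 73.7%. With such nuclei left out 696 members remained. The source of these UMIs was not tested.

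As a description of the astrocyte label, general markers that the rule did not use were read. Slc1a3, the other main glutamate transporter of astrocytes, lay at 2091 ± 95.9 UMIs per 1000000 (CPM; mean ± SD, n = 6) in Slc6a11 astrocytes, against 197 ± 16.0 in 4724 oligodendrocytes chosen by Mog and Mag. The water channel Aqp4 lay at 132 ± 13.7 against 8.24 ± 1.96 CPM, the gap junction protein Gja1 at 164 ± 25.5 against 15.5 ± 2.02 CPM, and the folate enzyme Aldh1l1 at 103 ± 6.34 against 7.74 ± 1.80 CPM. All libraries of the Slc6a11 astrocytes lay above all libraries of the oligodendrocytes in these 4 genes. Oligodendrocytes should lack these genes, so their levels serve as a background. They were chosen with 4 or more UMIs of Mog and Mag together and at most 1 UMI of Slc1a2. Members needed 4 or more Slc1a2 UMIs, so the choice itself favours this separation, and the background may be too low. Where the UMIs there came from was not tested.

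Values of the rule's own genes describe the choice and carry no test. Slc6a11 was read at 1133, 1245 and 1327 CPM (lowest, median and highest library) in the Slc6a11 astrocytes, with means of 348 ± 21.1 in Gldc and 204 ± 38.0 in Gfap astrocytes, so the transporter was present in all 3 groups and graded between them. Lrig1 was read at 567, 601 and 667 CPM, against means of 129 and 107 CPM in the other groups. Itih3 was read at 243, 283 and 319 CPM, against 69.1 and 55.6 CPM. Aldh1a1, the sparsest of the 4, was read at 195, 214 and 270.5 CPM, against 50.7 and 16.5 CPM.

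The members were not all positive for all 4 genes. A UMI of Slc6a11 was found in 96.9 to 99.2% of members per library, of Lrig1 in 80.9 to 87.9%, of Itih3 in 53.8 to 61.9% and of Aldh1a1 in 27.8 to 34.6%. In the oligodendrocytes, whose median depth of 3398 to 4472 UMIs was similar, these shares were 8.54 to 11.4, 6.30 to 9.23, 4.57 to 6.58 and 4.42 to 8.11%. Low Slc1a2 was part of the choice of these oligodendrocytes, so their shares may be too low as a background. The genes of the Gldc sum were lower in the members but far from absent: Rorb, a clock-linked nuclear receptor, averaged 813 ± 73.5 CPM against 1522 ± 71.4 in Gldc astrocytes, and Gldc itself, the glycine cleavage enzyme, averaged 70.2 ± 9.40 against 340 ± 11.3. Gfap, the filament protein, averaged 27.8 ± 7.39 CPM in the members and 85.4 ± 18.4 in the Gfap astrocytes. Slc1a2, the gate gene, averaged 3267 ± 177, 5693 ± 283 and 2803 ± 338 CPM in Slc6a11, Gldc and Gfap astrocytes.

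**Figure D1:**
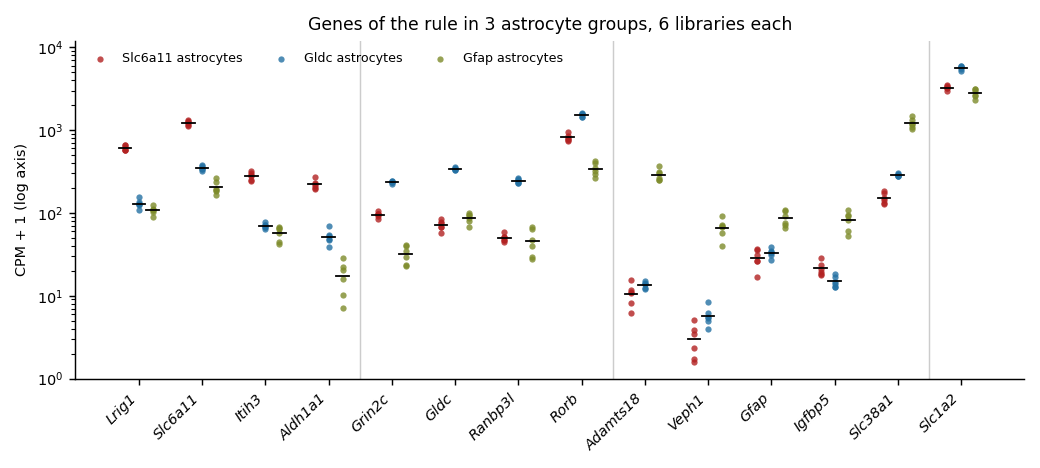
CPM plus 1 (log axis) of each gene of the 3 sums and of Slc1a2, by group; points are the 6 libraries and bars their mean. Slc6a11 lies between 1133 and 1327 CPM in the Slc6a11 astrocytes; these genes chose the groups, so the plot describes the choice.

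When 1 of the 4 genes was dropped from the sum and then read in the nuclei that the other 3 chose, it was still higher there as a plain value. Lrig1 averaged 524 ± 46.7 CPM in the 1298 nuclei chosen without it, against 169 and 123 CPM in the Gldc and Gfap astrocytes. Slc6a11 averaged 1134 ± 92.6 CPM in 720 nuclei, against 451 and 284 CPM. Itih3 averaged 248 CPM in 1653 nuclei, against 77.6 and 59.8 CPM, and Aldh1a1 averaged 158 CPM in 1743 nuclei, against 65.0 and 22.6 CPM. These values carry no test, since the 4 genes were chosen for going together.

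Nuclei on both sides of the threshold of 4 are described here with no test. The 156 members with a sum of exactly 4 had pooled levels of 43.0 CPM for the glycine transporter gene Slc6a9, 30.4 for Agt, 19.7 for Lhx2, 80.6 for Mfge8 and 125 for Zic1. In the 138 nuclei just outside, whose sum led with 3, these levels were 22.4, 9.35, 13.1, 61.7 and 103 CPM, so all 5 genes were lower there than just inside. In the 1102 members with a sum of 9 or more they were 74.4, 32.7, 7.04, 50.1 and 51.1 CPM. The levels at the threshold rest on few UMIs: 11 inside and 7 outside for Lhx2, 17 and 5 for Agt, and 24 and 12 for Slc6a9. Of the 17 Agt UMIs inside, 8 came from replicate 1. A further 253 nuclei were tied at 4 or more and left out, with 30.3, 24.4, 16.0, 77.4 and 114 CPM.

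Against the Gldc astrocytes, the most numerous group, the Slc6a11 astrocytes were set apart by higher Slc6a9, Agt, Gria1, Nr2f1, Gabbr2, Heyl and the Hedgehog response genes Ptch1 and Gli1, and by lower Lama3, Thbs4, Hopx, Lhx2, Emx2, Pax6, Zic1 and Zic4. Counts were summed per library and group, and all 3 groups were fitted in 1 model with the library as a block. A gene was called when edgeR's quasi-likelihood test gave a Benjamini-Hochberg adjusted p under 0.05 over all genes tested and the fold was 1.5 or more. Of 11313 genes tested, 705 (6.23%) were called, 305 (2.7%) higher and 400 (3.54%) lower in the Slc6a11 astrocytes. The levels of 1111 genes (9.82%) did not overlap between the libraries of the 2 groups. Leaving out 1 library at a time gave 662 to 715 calls. The counts of each gene list that follow for this comparison stand against these shares of 2.7% higher and 3.54% lower.

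**Figure D2:**
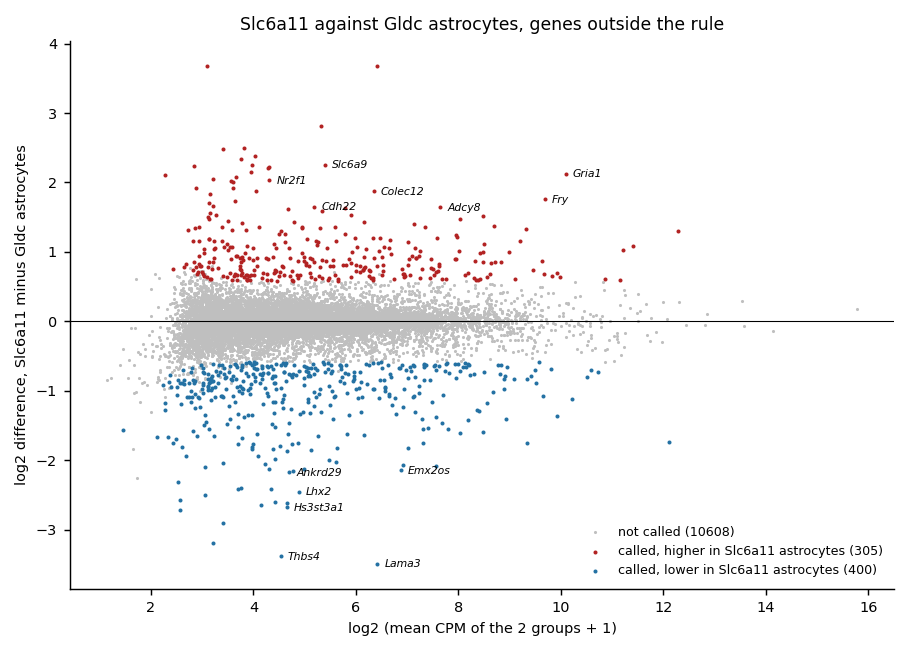
Log2 difference between Slc6a11 and Gldc astrocytes (vertical) against log2 of the mean CPM of both groups plus 1 (horizontal), 1 point a gene; called genes are coloured. Of 11313 genes, 305 lie in the higher and 400 in the lower colour; Lama3 is the lowest labelled point at -3.49.

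Slc6a9 (ENSMUSG00000028542), the glycine transporter of astrocytes known as GlyT1, was read at 59.7, 65.0 and 85.1 CPM (lowest, median, highest library) in the Slc6a11 astrocytes and at 11.1, 12.6 and 21.5 CPM in the Gldc astrocytes. The libraries of the groups did not overlap. The difference was 2.26 ± 0.11 on the log2 scale (± SE throughout), adjusted p = 2.907e-12 by edgeR's quasi-likelihood test with Benjamini-Hochberg adjustment. Oligodendrocytes also carry the gene, at 46.8 CPM, and the summed oligodendrocyte markers were 807 to 1650 CPM in the Slc6a11 and 993 to 1340 CPM in the Gldc astrocytes, against 11900 to 14100 CPM in the oligodendrocytes themselves. The Slc6a9 gene overlaps Gm17114, Ccdc24 and B4galt2 in GENCODE, all on the opposite strand. The use of strand in counting was not given in the sources used here, so whether reads of these genes were kept apart is not known.

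Agt, which encodes angiotensinogen, was read at 21.9, 31.2 and 38.4 CPM in Slc6a11 and at 5.34, 6.22 and 9.19 CPM in Gldc astrocytes. No library of one group reached the range of the other, and the log2 difference was 2.23 ± 0.13 (edgeR adjusted p = 5.266e-11). Only 1 of the 4 tested genes of the renin-angiotensin list was called, Agt itself. Agt and Slc6a9 are both known as genes of astrocytes outside the telencephalon. Of 13 tested genes on a list of such genes 3 were higher (Agt, Slc6a9 and the matrix protein gene Sparc, 67.6 against 26.3 CPM) and 7 were lower (Hopx, Gfra1 and 5 Zic genes), with a median log2 difference of -0.75 against 0.0025 over all genes tested. Zic1 and Zic4 also mark medial and dorsal forebrain. The falls of the Zic genes, and the median they enter, are therefore no reading of non-telencephalic genes alone.

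Gria1, an AMPA glutamate receptor subunit, was read at 1579, 1787 and 2003 CPM in Slc6a11 astrocytes and at 342, 419 and 454 CPM in Gldc astrocytes. Every Slc6a11 value lay above every Gldc value, with a log2 difference of 2.12 ± 0.06 (edgeR adjusted p = 6.706e-16). GABAergic neurons carried 2173 CPM of Gria1. The summed neuron markers were 1780 to 2410 CPM in Slc6a11 and 1660 to 2450 CPM in Gldc astrocytes. Of 11 tested neuron markers edgeR called 0, with 0 at an unadjusted p under 0.05 and 0 called by DESeq2. The part of neuronal RNA in the Gria1 difference was not tested. Among 28 tested genes of glutamate handling Gria1 was the only one higher, while the kainate receptor Grik1, the metabotropic receptor Grm3 (1265 against 2095 CPM), the NMDA receptor Grin2b and the glutamine carrier Slc38a2 were lower. The Slc38a2 call was lost at an equal depth of 2000 UMIs a nucleus, with -0.58, and the Grin2b call without replicate 2, with -0.58, and in 2 other settings.

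Of 18 tested genes of GABA uptake, breakdown and receptors 2 were higher and 1 was lower, against 2.7% and 3.54% of all genes, with a median of -0.05. Gabbr2, a subunit of the GABA-B receptor, was read at 550.5, 594.5 and 635 CPM in Slc6a11 astrocytes and at 193, 222 and 286 CPM in Gldc astrocytes, a log2 difference of 1.38 ± 0.07 (edgeR adjusted p = 1.111e-12). The lowest Slc6a11 library lay above the highest Gldc library. Abat, which breaks GABA down, was higher (225 against 142 CPM, 0.67), a call that was lost when nuclei with markers of other cell types were left out (0.52), and Gabra2, a GABA-A subunit, was lower (197 against 325 CPM, -0.72).

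The Hedgehog list was called more often than the background: 6 of its 13 tested genes were higher, against 2.7% of all genes, and 1 was lower. Ptch1, receptor and target in one, was read at 711, 809 and 902 CPM in Slc6a11 astrocytes and at 314, 368 and 415 CPM in Gldc astrocytes. Its libraries did not overlap, and its log2 difference was 1.15 ± 0.05 (edgeR adjusted p = 4.91e-14). Gli1, the transcription factor that is itself a target, was read at 40.3, 53.2 and 59.1 CPM against 18.8, 23.0 and 28.6 CPM (1.14 ± 0.10). It too stood apart in every library. Gli1 overlaps Arhgap9, whose reads cannot be told apart from its own.

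Smo, the signal transducer, was higher by 0.65 (91.7 against 58.4 CPM), the ligand-binding target Hhip by 0.65 (46.4 against 29.5 CPM, higher in 5 of 6 libraries) and the secreted ligand helper Scube1 by 1.18 (10.8 against 4.78 CPM). The call of Hhip was lost at an equal depth of 2000 UMIs (0.51) and that of Smo at a stricter gate of 8 Slc1a2 UMIs (0.58). The co-receptor Cdon was lower, at 11.5 against 28.9 CPM (-1.32). Gli2 and Gli3, which act upstream of Gli1, were not called (248 against 248 CPM, and 521 against 629 CPM, a difference of -0.27). The ligand Shh gave 3 UMIs in all 1891 members. The list's median of 0.01 lies near the 0.0025 of all genes, since the genes not called lie near or below 0. Leaving out 1 library left 6 genes of the list higher each time, and the other settings left 4 to 6.

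**Figure D3:**
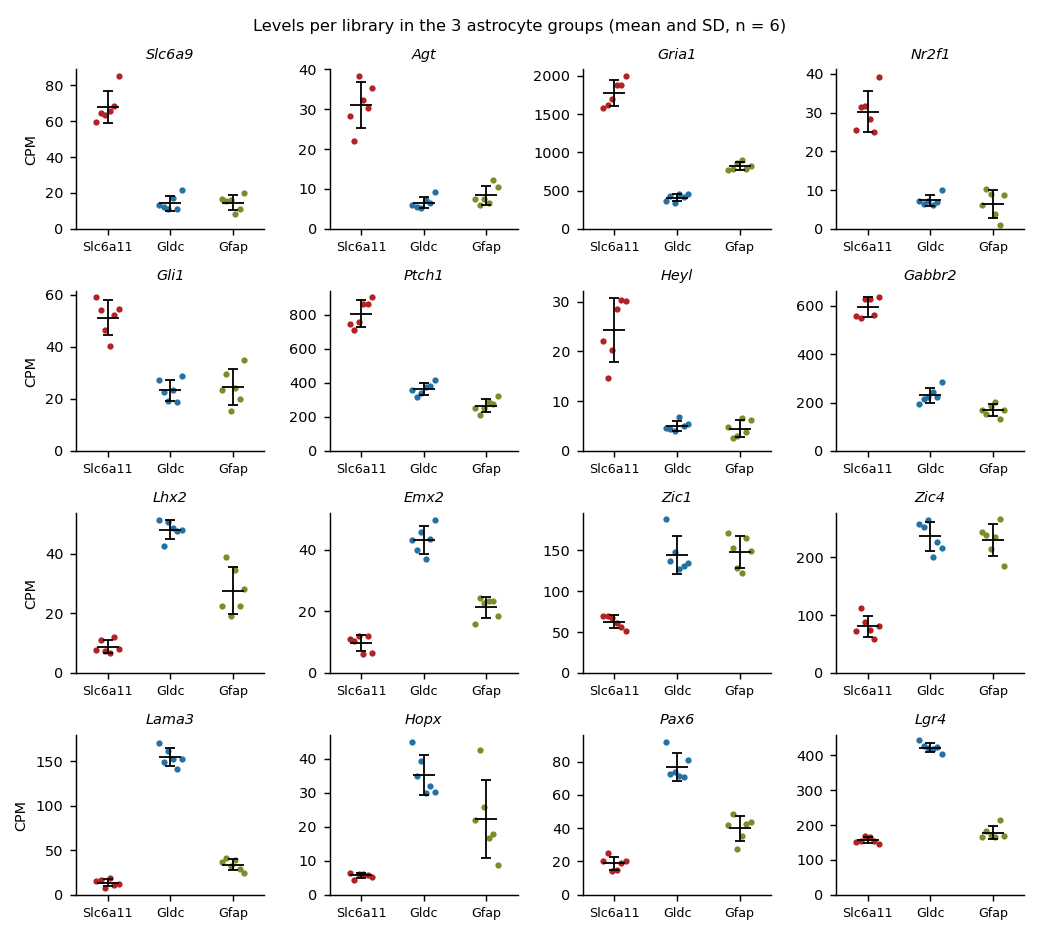
CPM in each library for 16 genes in the Slc6a11, Gldc and Gfap astrocytes; dots are libraries, bars the mean and SD of 6. In Slc6a9, Agt, Gria1, Ptch1 and Heyl the Slc6a11 dots lie above both other groups, and in Zic1 and Zic4 below both; Gli1 lies between 40.3 and 59.1 CPM in the Slc6a11 astrocytes.

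Of 18 tested Notch pathway genes 3 were higher and 0 were lower by edgeR's test, against 2.7% and 3.54% of all genes, with 9 at an unadjusted p under 0.05 in either direction and 3 called by DESeq2. Heyl, a Notch target, was read at 14.6, 25.3 and 30.3 CPM in Slc6a11 and at 3.90, 4.80 and 6.78 CPM in Gldc astrocytes (2.26 ± 0.14). Its lowest value in the one group was above the highest in the other. The ligand Jag1 averaged 28.0 against 13.4 CPM (1.06) and the receptor Notch3 67.3 against 38.3 CPM (0.81). The receptor Notch1 (92.6 against 98.8 CPM) and the target Hes5 (47.1 against 48.7 CPM) were not called, and the median of the list was -0.01.

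Transcription factors that pattern the forebrain split. Nr2f1, the nuclear receptor COUP-TFI, was read at 24.93, 29.96 and 39.27 CPM in Slc6a11 and at 6.24, 7.04 and 10.02 CPM in Gldc astrocytes, with no overlap (2.04 ± 0.16, edgeR adjusted p = 2.8e-09). It overlaps A830082K12Rik on the opposite strand, and whether their reads were kept apart is not known. Its relative Nr2f2 (8.03 against 3.17 CPM, 1.32) and the homeobox gene Meis1 (179 against 93.3 CPM, 0.94) were also higher, so that 3 of 10 tested genes of septal and basal forebrain patterning were higher and 0 lower by edgeR, with 3 at an unadjusted p under 0.05 and 3 called by DESeq2.

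Pallial and medial telencephalic factors were lower. Lhx2 was read at 6.81, 7.69 and 11.9 CPM in Slc6a11 and at 42.6, 48.3 and 51.4 CPM in Gldc astrocytes (-2.45 ± 0.16, edgeR adjusted p = 2.566e-10). Emx2 was read at 6.19, 10.6 and 12.1 CPM against 37.1, 43.4 and 49.7 CPM (-2.15), and its antisense neighbour Emx2os averaged 42.8 against 190 CPM (-2.15); their reads cannot be told apart without strand. Pax6 was read at 14.1, 19.6 and 24.9 CPM against 70.6, 73.2 and 92.0 CPM (-2.03). In each of these the groups stood well apart. Of 15 tested genes on a list of telencephalic astrocyte genes 8 were lower and 1 higher, against 3.54% and 2.7% of all genes, with a median of -0.61.

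The paired zinc finger genes Zic1 and Zic4, which mark medial and dorsal forebrain, were lower although present. Zic1 was read at 51.7, 63.7 and 70.2 CPM in Slc6a11 and at 127, 136 and 189 CPM in Gldc astrocytes (-1.20 ± 0.08, edgeR adjusted p = 1.397e-10), and Zic4 at 58.2, 77.4 and 112 CPM against 200, 239 and 264 CPM (-1.55 ± 0.10). Neither gene overlapped between the groups. The 2 genes overlap in GENCODE, so their reads are uncertain without strand.

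The laminin chain gene Lama3 was the gene named by the rule with the largest fall: 8.08, 13.7 and 18.6 CPM in Slc6a11 and 142, 153 and 171 CPM in Gldc astrocytes (-3.49 ± 0.11, edgeR adjusted p = 3.652e-15). Thbs4, a thrombospondin of astrocytes, was read at 0.654, 3.80 and 8.77 CPM against 29.1, 39.4 and 56.4 CPM (-3.38 ± 0.30). Hopx, a homeodomain-like cofactor, was read at 4.39, 5.997 and 6.37 CPM against 29.8, 33.4 and 44.8 CPM (-2.60 ± 0.21). All 3 were apart in every library. The heparan sulfate sulfotransferase Hs3st3a1 (6.45 against 41.6 CPM), the adhesion gene Cdh4 (71.7 against 304 CPM), the BMP antagonist Chrdl1 (6.93 against 30.8 CPM), Ankrd29 and the vesicle protein gene Syt17 fell by 2.68, 2.08, 2.13, 2.18 and 2.13 on the log2 scale. Hopx overlaps Hopxos and Lama3 overlaps Gm29200.

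Further genes with the largest rises were Svep1, a matrix protein gene (30.5 against 6.65 CPM, 2.21), Colec12, a scavenger receptor gene (126 against 34.3 CPM, 1.87), Fry, a scaffold gene of cell shape (1265 against 375 CPM, 1.76), the cadherin gene Cdh22 (1.65), the adenylyl cyclase gene Adcy8 (300 against 96.5 CPM, 1.65), the phospholipase gene Plce1 (528 against 186 CPM, 1.51), the AMPA receptor auxiliary gene Shisa9 (384 against 139 CPM, 1.48) and Sfta3-ps, a processed transcript (1.63). Adcy8 overlaps Gm21798. Each was higher in 6 of 6 libraries, which the naming rule required. Outside the naming rule, which leaves out clone names and sparse genes, and chosen after their values were seen, stand the long RNA B230323A14Rik (157 ± 28.6 against 12.4 ± 4.83 CPM, 3.68), the potassium channel subunit gene Kcns3 (13.9 ± 5.19 against 1.07 ± 0.50 CPM, 3.68) and the homeobox gene Nkx6-2 (25.8 ± 6.11 against 4.84 ± 0.98 CPM, 2.38), each without overlap between libraries.

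Since Lrig1 restrains ErbB receptors, a list of such receptors and their ligands was read. Erbb4 averaged 3172 ± 111 CPM in Slc6a11 and 1562 ± 127 CPM in Gldc astrocytes, with libraries of 3043 to 3316 against 1426 to 1724 CPM (1.03 ± 0.05). Lrig3, a relative of Lrig1, averaged 45.2 against 25.1 CPM (0.85). The GDNF co-receptor Gfra1 (57.2 against 201 CPM, -1.82) and Fgfr1 (124 against 223 CPM, -0.85) were lower. Egfr itself (412 against 362 CPM, 0.19) and Lrig2 (76.0 against 78.3 CPM, -0.04) were not called. Of 19 tested genes 2 were higher and 2 lower, against 2.7% and 3.54% of all genes, with a median of -0.04.

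Proteins that bind hyaluronan and shape the matrix, read because Itih3 is one, split as well: of 13 tested genes 2 were higher and 3 lower, with a median of 0.07. Sparc (67.6 against 26.3 CPM, 1.36) and its relative Sparcl1 (1014 ± 13.1 against 560 ± 42.5 CPM, 0.87) were higher. The link protein gene Hapln1 (38.4 against 95.9 CPM, -1.31), the proteoglycan gene Vcan (63.6 against 124 CPM, -0.96) and Tnr (193 against 296 CPM, -0.61) were lower. Tnr turned to 0.54 without nuclei that hold markers of other cell types and to 0.41 at middle depth, and its call was also lost at 2000 UMIs (-0.34), at 8 Slc1a2 UMIs (-0.19) and without replicate 6 (-0.56). General astrocyte identity changed little: of 20 tested markers 0 were higher by edgeR and the phagocytic receptor gene Mertk (-0.70) and Clu (-0.63) were lower, although 18 had an unadjusted p under 0.05; DESeq2 called 2 in either direction. Aqp4 averaged 132 against 128 CPM and Gja1 164 against 197 CPM.

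Markers of other cell types were read in the same way. The summed level was 45.8 to 136 CPM in Slc6a11 and 107 to 152 CPM in Gldc astrocytes for 10 ependymal markers, 63.5 to 96.9 and 88.6 to 129 CPM for 8 markers of oligodendrocyte precursors, 94.8 to 207 and 170 to 284 CPM for 10 microglial markers, and 74.9 to 137 and 85 to 113 CPM for 10 vascular markers. Of 6 tested precursor markers 3 were called lower, Pdgfra (21.1 against 40.0 CPM, -0.92), Cspg4 (-0.67) and Neu4 (-1.09), and of 6 tested ependymal markers 2 were, Dnah12 (-0.77) and Cfap299 (-0.67). Over the other settings the number lower was 0 to 3 for the precursor and 0 to 6 for the ependymal list, and with 1 library left out it was 1 to 4 and 0 to 3. Per library at most 1 of the ependymal, 1 of the neuron and 1 of the microglial markers was at 0 in the Slc6a11 astrocytes. For 9 tanycyte markers the sums were 162 to 208 and 277 to 340 CPM, and 4 of the 6 tested were lower: Lhx2, Vcan, Dio2 and Crym. Of 10 oligodendrocyte markers edgeR called 0, with 0 at an unadjusted p under 0.05 and 0 by DESeq2. The part of other cells in the differences from the Gldc astrocytes was not tested.

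**Figure D4:**
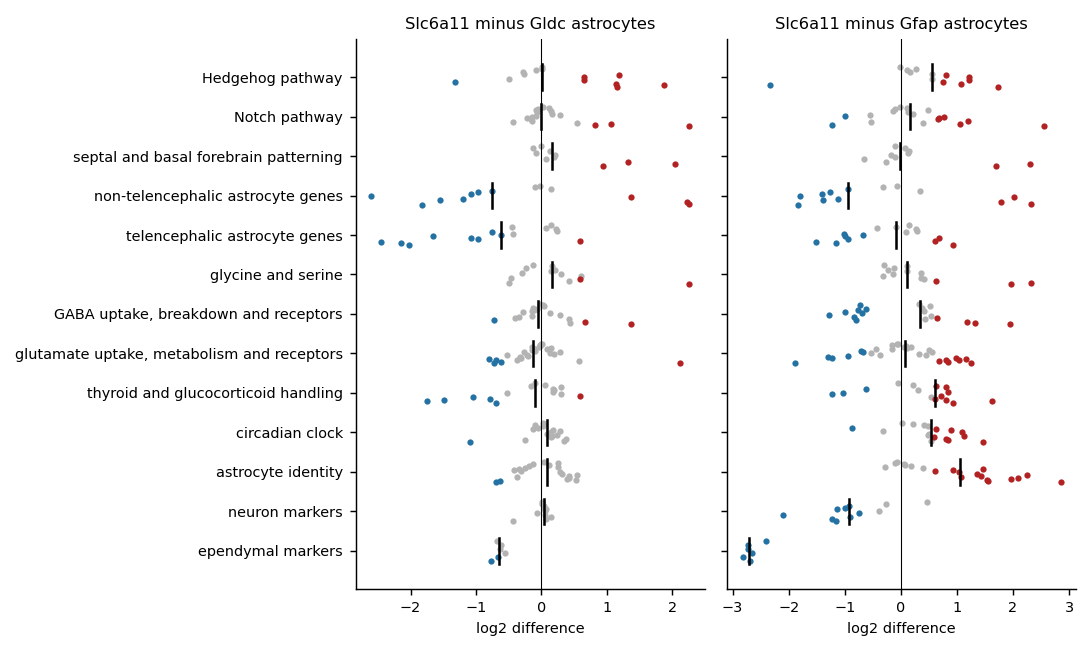
Log2 difference of each tested gene (points) and the median (bar) of 13 lists, for Slc6a11 minus Gldc and Slc6a11 minus Gfap astrocytes; red is called higher, blue called lower, grey not called. In the Hedgehog list 6 genes are red and 1 blue in both columns; both columns use the same Slc6a11 counts.

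Gated nuclei with 8 or more UMIs in the 3 sums together were ordered by the share that the Slc6a11 sum made of that total. The share is built from the rule's own measure, so the values are a description with no test. Nuclei with a low share can be of the Gldc or of the Gfap kind. The share rests on few UMIs in each nucleus, so a slope over nuclei and a step between 2 groups cannot be told apart. In nuclei with a share of 0 to 10% Slc6a9 averaged 8.01 ± 3.48 CPM over libraries, and in those with 70 to 100% it averaged 84.8 ± 8.45. Agt averaged 4.24 ± 1.42 CPM at 0 to 10%, 36.3 ± 12.2 at 60 to 70% and 32.7 ± 8.97 at 70 to 100%. Lhx2 went the other way, from 54.8 ± 4.46 to 2.20 ± 2.62 CPM. From the bin of 40 to 50% to that of 50 to 60% Lhx2 went from 25.8 ± 14.1 to 10.57 ± 2.502 CPM and Slc6a9 from 33.1 ± 16.5 to 57.28 ± 19.95 CPM. Mfge8, a secreted protein gene of telencephalic astrocytes, averaged 73.4 ± 7.51 CPM at the low end, 86.2 ± 12.7 at 30 to 40% and 41.4 ± 12.5 at the high end. The bins held 519 to 2135 nuclei, no fewer than 68 in any library.

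Against the Gfap astrocytes, the Slc6a11 astrocytes were higher in genes of astrocyte identity and lower in genes of cilia and neurons. Of the same 11313 genes 2467 (21.8%) were called, 1007 (8.9%) higher and 1460 (12.9%) lower, and 2243 (19.8%) did not overlap between libraries. This comparison shares the Slc6a11 counts with the one before, so the 2 are not independent. The summed neuron markers reached 3400 to 3900 CPM in the Gfap astrocytes, against 1780 to 2410 in the Slc6a11 astrocytes, and the summed ependymal markers 249 to 943 against 45.8 to 136 CPM. Their part in the calls was not tested. With nuclei that hold markers of other cell types left out, 1109 genes were called, 552 higher and 557 lower, of 6695 tested, and 810 of them were called in the whole groups too.

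The cation channel gene Trpm3 was read at 6377, 7042 and 7809 CPM in Slc6a11 and at 931, 1060 and 1117 CPM in Gfap astrocytes (2.89 ± 0.05, edgeR adjusted p = 1.097e-19), with 2877 CPM in the Gldc astrocytes. All 6 values of the Slc6a11 astrocytes lay above all others. The glypican gene Gpc5 averaged 13110 against 1999 CPM (2.85), the potassium channel gene Kcnd2 3699 against 762 CPM (2.43), the transcription factor gene Trp63 43.2 against 5.72 CPM (3.05) and the guanine exchange factor gene Vav3 249 against 44.8 CPM (2.58). Trpm3 overlaps C330002G04Rik.

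The median log2 difference of 20 astrocyte identity genes was 1.05 against -0.01 over all genes, and 16 had an unadjusted p under 0.05. By edgeR's test 13 were higher and 0 lower, against 8.9% and 12.9% of all genes, and DESeq2 called 13. The gap junction gene Gjb6 (88.5 against 20.2 CPM), the growth factor receptor gene Fgfr3 (200 against 51.3 CPM), the serine and alanine carrier gene Slc7a10 (218 against 61.6 CPM) and Aldh1l1 (103 against 44.3 CPM) were among them, while Slc1a3 (0.06), Aqp4 (0.39) and Gja1 (-0.06) were not called. Over the other settings 10 to 13 genes of the list were higher.

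Slc6a9 (2.32 ± 0.15), Agt (2.02 ± 0.17), Nr2f1 (2.31 ± 0.22), Heyl (2.56 ± 0.20) and Gabbr2 (1.94 ± 0.07) were higher than in Gfap astrocytes also, and Gria1 was higher by 1.25 ± 0.06, with 816 CPM in the Gfap astrocytes. In the Hedgehog list 6 of 13 genes were higher, against 8.9% of all genes, and Cdon was lower (-2.33), with a median of 0.56. Ptch1 differed by 1.74 ± 0.05, Gli1 by 1.21 ± 0.13, Hhip by 1.21, Smo by 1.06 and Gli2 by 0.75, the last losing its call in 4 settings, with 0.34 without nuclei that hold markers of other cell types.

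Lhx2 (-1.51), Emx2 (-0.99), Pax6 (-0.94), Zic1 (-1.12), Zic4 (-1.39) and Hopx (-1.80) were lower than in the Gfap astrocytes as well. The largest falls included the dopamine receptor gene Drd3 (2.77 against 58.8 CPM, -4.28), the protease gene Corin (4.88 against 92.8 CPM) and Thbs4 (3.97 against 49.4 CPM, -3.52). All 6 tested ependymal markers were lower, among them the dynein genes Dnah6 and Dnah12, and so were 8 of 11 neuron markers. Of all genes 12.9% were lower in this comparison. Over the other settings the number lower was 1 to 6 for the ependymal and 0 to 8 for the neuron list.

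The members also differed among themselves by Aldh1a1. A UMI of Aldh1a1 was present in 591 members (82 to 114 per library) and absent in 1300 (182 to 283), with median UMI counts of 4104 to 5729 and 3553 to 4598.5, so the split follows depth in part. Aldh1a1 is also 1 of the 4 genes whose sum chose the members, so nuclei with it could join with less of the other 3. The genes of the sums are given as values with no test. Lrig1 averaged 610 ± 75.8 CPM with and 611 ± 33.9 without Aldh1a1, Slc6a11 1228 ± 124 and 1235 ± 62.0 CPM, and Itih3 307 ± 28.0 and 266 ± 37.4 CPM. Rorb averaged 981 ± 80.9 against 726 ± 75.9 CPM and Slc38a1 80.8 ± 23.3 against 187 ± 26.3 CPM, both with no overlap. The median Gldc sum over libraries averaged 5.33 UMIs with and 3.33 without Aldh1a1.

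Of 7927 genes tested within the members 131 (1.65%) were called, 59 (0.744%) higher and 72 (0.908%) lower with Aldh1a1, and 216 (2.72%) did not overlap. At an equal depth of 2000 UMIs a nucleus 111 of 4586 tested genes were called. The split by Aldh1a1 was still made on the full counts, so this setting does not undo the part of depth in the split. In an alternative chosen after seeing the data, only the 443 members with Aldh1a1 that also pass on the other 3 genes were set against the 1300; 172 of 7471 genes were called, 70 higher and 102 lower, and 106 of them were among the 131.

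Vav3 was read at 342, 373 and 476 CPM in members with Aldh1a1 and at 140, 173 and 192 CPM in those without (1.28 ± 0.08, edgeR adjusted p = 3.902e-09). No library overlapped. The secreted protein gene Tafa1 (302 against 130 CPM, 1.25), the splicing factor gene Rbm20 (61.7 against 27.8 CPM, 1.19) and the GTPase regulator gene Arhgap29 (24.0 against 7.33 CPM, 1.72) were higher too, the last not called by DESeq2. The sialyltransferase gene St6galnac5 was read at 74.8, 118 and 164 CPM against 337, 395 and 424 CPM (-1.66 ± 0.11, edgeR adjusted p = 1.191e-08), again with no overlap; it shares transcribed bases with Pigk. Megf11, a gene of cell spacing (33.1 against 105 CPM, -1.64), and the semaphorin gene Sema5b (22.7 against 68.3 CPM, -1.56) were lower.

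Of 9 tested genes on the list of non-telencephalic astrocytes 1 was higher and 2 were lower with Aldh1a1, against 0.744% and 0.908% of all genes. The 2 lower ones were Zic1 and Zic4, which also mark medial and dorsal forebrain. Of 9 telencephalic genes 0 were higher and 2 lower by edgeR, with 5 at an unadjusted p under 0.05 and 1 called by DESeq2. Most tested genes of both lists were not called. Zic1 was read at 18.9, 34.4 and 43.3 CPM with Aldh1a1 and at 68.7, 77.5 and 88.4 CPM without (-1.20 ± 0.16, edgeR adjusted p = 7.765e-05), and Zic4 averaged 40.3 against 102 CPM (-1.34), Emx2os 19.8 against 54.7 CPM (-1.46) and Id4, an inhibitor of basic helix-loop-helix factors, 56.2 against 96.9 CPM (-0.74). The Id4 call was lost at an equal depth of 2000 UMIs, with -0.53, and with a leading sum 2 times each other sum, with -0.62. Slc6a9 was higher (86.6 against 57.9 CPM, 0.62), a call lost without replicate 4 (0.54), without replicate 5 (0.56), by DESeq2 (0.62), with a leading sum 2 times each other sum (0.55) and without nuclei that hold markers of other cell types (0.59). None of the 10 tested Hedgehog genes was called by edgeR, with 0 at an unadjusted p under 0.05 and 0 by DESeq2: Gli1 averaged 47.7 against 53.1 CPM and Ptch1 835 against 791 CPM. Agt averaged 31.5 against 30.6 CPM (0.05).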

How the data were processed

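The authors deposited raw UMI counts per gene and barcode for 6 libraries, with no empty droplets. The submitters' processing notes name STAR and Cell Ranger 3.1.0, while the file headers name Cell Ranger 5.0.0; genome build, use of strand and intron counting were not given in the sources used here. Members, gene lists and tests were chosen with earlier results of these data known. The gate, the sums and the filters are as given above, and no doublets were removed. Doublets were predicted in each library from added pairs of barcodes, which 46.4 to 60% of the added pairs passed, and an alternative leaves the predicted ones out.

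Counts were summed per library and group and tested with edgeR 4.0.16 (filterByExpr, TMM, quasi-likelihood, R 4.3.3). The library was a block because the groups come from the same libraries, which is where the pairing comes from. The 13 genes of the sums and Slc1a2, Gad1 and Gad2 were left out of the tests but kept in totals. CPM is per 1000000 UMIs. Alternatives were DESeq2 1.42.0, other filters and scalings, other thresholds of the sums and the gate, doublets or nuclei with 2 or more UMIs of markers of other cell types left out, equal or middle depth, no block, and each library left out; 1 on the choice by Aldh1a1 was added after seeing the data. Named genes were the 12 with the largest difference in each direction among those called, with the same direction in 6 of 6 libraries, 30 CPM or more and a symbol that is no clone name (6 and 20 CPM within the members), up to 4 called genes a list, and a further set of astrocyte and regional genes; other list members were named after their values were seen. Besides those named above, Lhx2, Pax6, Id4, Meis1, Nr2f2, Notch3, Cdh22, Fry, Plce1, Gfra1, Fgfr1, Erbb4, Egfr, Lrig1, Lrig2, Vcan, Sparcl1, Mertk, Aqp4, Aldh1l1, Slc1a2, Slc7a10, Gpc5, Corin, Rbm20, Aldh1a1, Dio2, Adora1, Ednra, Arntl and Ephb1 overlap another gene in GENCODE. The same holds for Pdgfra, Tafa1, Dnah6, Cfap299 and Veph1. Of all these, Erbb4, Lrig2, Aldh1l1, Corin, Ephb1 and Cfap299 overlap a gene on their own strand, and the others only on the opposite strand. Whether reads from opposite strands were kept apart is not known. Genes outside the naming rule, other than those of the sums and Slc1a2, were not searched for overlaps. There were 33 lists with 604 genes, 603 of them in the annotation; the counts include a few genes whose own values are not reported here. On simulated data with 11330 genes the fit recovered 99% of genes changed 2-fold and 64% of those changed 1.5-fold, with 11 false calls. These calls used the adjusted p under 0.05 alone, without the fold of 1.5. The changed genes were drawn from those with a mean above 30 counts, and all genes had the same simulated spread. The figures therefore do not describe the calling rule used here or sparse genes. Python 3.11.15, numpy 2.4.6, scipy 1.17.1, pandas 2.3.3, scikit-learn 1.9.0 and matplotlib 3.10.9 were used.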

Additional observations from a re-analysis of the deposited data

Results flagged for a closer look

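Slc6a9 in the Slc6a11 astrocytes had 1 library far from the others: replicate 6 lay at 85.1 CPM, and the other 5 libraries lay between 59.7 and 68.3 CPM. The gap to the nearest library was 0.661 of the whole range, above Dixon's 95% critical value for 6 samples. It was 1 of 48 values so checked, and chance alone marks about 1 in 20.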

How the results depend on the processing

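The count of genes called between Slc6a11 and Gldc astrocytes (705) became 1626 by the adjusted p alone and 273 at a fold of 2, and 662 to 715 with 1 library left out. Between Slc6a11 and Gfap astrocytes (2467) it became 1109 without nuclei that hold markers of other cell types, 1495 at 2000 UMIs a nucleus, 1537 at middle depth, 4048 by p alone and 1159 at a fold of 2, and 2378 to 2440 with 1 library left out; fewer genes could be tested in the first 3 of these. Within the members (131) it became 84 when the leading sum had to be 2 times each other sum, 83 by DESeq2, 303 by p alone and 33 at a fold of 2, and 104 to 128 with 1 library left out. Without the replicate block the counts were 698, 2459 and 126, and 691, 2434 and 121 of the genes were shared with the blocked fit. The share of members (3.50% of nuclei) became 2.92% at a sum of 6, 1.98% at 2 times each other sum, 2.68% at 8 Slc1a2 UMIs and 1.28% without nuclei that hold markers of other cell types. Of the genes under the naming rule, some reversed. Against the Gldc astrocytes Dnah12 turned to 0.18 and Cfap299 to 0.075 with doublets left out, and Cfap299 to 0.059 without marker-bearing nuclei. Against the Gfap astrocytes Gria3 turned to 0.17 without those nuclei, and at middle depth Gria3 turned to 0.082, Stmn2 to 0.39 and Dcx to 0.20. The cause was not tested. Of the named called genes 72 of 88, 87 of 120 and 9 of 16 kept their call in every setting that tested them. A gene too sparse to be tested in a setting was not counted as lost there. Without nuclei that hold markers of other cell types, 67, 69 and 6 of the named called genes were tested and kept their call. Depth limits genes under about 10 CPM, which rest on few UMIs a library.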

Other observations

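Other lists held further differences of the Slc6a11 from the Gldc astrocytes, all by edgeR's quasi-likelihood test over all genes, of which 2.7% were higher and 3.54% lower. Of 20 tested neuromodulator receptor genes 3 were higher and 2 lower, against those shares: the endothelin receptor gene Ednrb (323 ± 24.0 against 173 ± 13.9 CPM, 0.90), the adenosine receptor gene Adora1 (39.63 against 19.95 CPM, 0.99) and the histamine receptor gene Hrh1 (90.0 against 52.4 CPM, 0.78) rose, the last losing its call without nuclei that hold markers of other cell types (0.55), and Ednra fell (14.2 against 26.6 CPM, -0.89). Htr2b (12.1 against 18.1 CPM, -0.59) kept its call in 10 of 19 settings and lost it, among others, without replicate 3 (-0.50), without replicate 4 (-0.42) and without replicate 5 (-0.57). Of 15 genes of thyroid and glucocorticoid handling 5 were lower, among them Dio2, which makes active thyroid hormone (13.1 ± 4.46 against 43.4 ± 4.07 CPM, -1.75), and the hormone carrier gene Slco1c1 (220 against 378 CPM, -0.78), and 1 was higher. Of 19 Wnt pathway genes 2 were higher and 3 lower, against 2.7% and 3.54% of all genes. The R-spondin receptor gene Lgr4 lay at 147 to 170 CPM against 403 to 443 CPM (-1.42), and its relative Lgr6 at 14.6 to 23.2 against 3.96 to 6.68 CPM (1.73), so the 2 receptors differed in opposite directions, each without overlap.

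Of 17 circadian clock genes edgeR called 1, a share near the 6.23% of all genes: the clock activator gene Arntl, which was lower (88.0 ± 11.8 against 188 ± 8.21 CPM, -1.09); the time of day of sampling was not given in the sources used here. Pygm, the glycogen phosphorylase gene, was the only one of 28 tested genes of glycolysis, glycogen and lactate to be called (27.5 ± 6.63 against 12.8 ± 1.53 CPM, 1.11), a share below the 6.23% of all genes. Of 15 neural stem cell genes 4 were lower (Thbs4, Hopx, Pax6 and Nr2e1, the last at 30.2 against 63.9 CPM, -1.07) and 0 higher by edgeR, with 10 at an unadjusted p under 0.05 in either direction and 4 called by DESeq2. Ephb1, an ephrin receptor gene of the list of synapse-shaping proteins, averaged 86.8 ± 12.4 against 251 ± 22.4 CPM (-1.53), and that list held 3 higher and 6 lower of 27 tested genes.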
